A study of Mus musculus with 6 samples.

Results

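Clade B serpins are protease inhibitors that stay mostly inside the cell, and mice carry a large set of them as tandem copies on chromosome 13. The 7 genes described here are Serpinb1a, Serpinb6a, Serpinb6b, Serpinb6c, Serpinb6e, Serpinb9 and Serpinb9b, out of 17564 genes with a value in whole mouse skin. They were chosen by name, with the contrast of treated and untreated skin in these same 6 libraries known, so their values in that contrast are a description and carry no test. 3 further clade B serpins of chromosome 13 (Serpinb1b, Serpinb1c and Serpinb6d) had values and serve as comparison genes.

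A serpin displays an exposed reactive centre loop as bait for a protease. When the protease cuts the loop it is trapped in a covalent complex, and both molecules are used up. Sequence differences in that loop decide which protease is caught, and the mouse copies differ from each other there. In barrier tissue and in leukocytes, clade B serpins are known for guarding cells against their own granule proteases and against proteases released by neighbouring cells.

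Whole back skin of wild-type C57BL/6 mice aged 8 weeks was sampled in 2 groups of 3. Both groups were shaved and depilated. The treated group also received 3 µg of SspA, the staphylococcal V8 protease, with 10 µg of house dust mite extract (HDM) on the skin, again at day 3, and was collected at day 7. For the untreated group no collection day is on record, and whether each sample is a different animal is not stated either. The comparison asks how serpin expression differs between skin exposed to the 2 agents and skin that was not. U1 to U3 and T1 to T3 denote untreated and treated replicates 1 to 3.

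Values are scaled reads, which the authors deposited on a scale where the libraries have nearly the same total. Between 4928245 reads (U2) and 7545567 reads (T3) lay behind each library. Of 15534 genes tested with limma, 1439 were higher and 1123 lower in treated skin at an adjusted p under 0.05. T3 was the treated library nearest to the untreated mean for 49.8% of those called genes and for 6 of the 7 serpins. It was not nearest on every list. The hair follicle list summed to 4713 to 5051 scaled reads in untreated libraries and to 6285, 4698 and 9361 in T1, T2 and T3. Of its 17 tested genes, 8 rose and 1 fell, beside 9.26% and 7.23% of all genes tested. Krt71, which rose, stood at 13.2, 15.4 and 11.4 in untreated and 346, 113 and 811 in treated libraries. Krt75, which fell, stood at 703, 958 and 735 in untreated and 435, 276 and 513 in treated libraries. The sum in T2 does not show these differences, and their cause was not tested. The keratinocyte marker list summed to 17814 to 18958 scaled reads in untreated and 15020 to 17864 in treated libraries, and the fibroblast list to 13736 to 16495 and 15420 to 19422, both being present in every library. On the neutrophil list, 9 of 10 tested genes rose, beside 9.26% of all genes tested. The list summed to 677 to 882 in untreated libraries and to 4928, 3636 and 1347 in T1, T2 and T3. Ly6g was at 0 in every untreated library. In whole tissue, fewer cells of a type and less RNA per cell cannot be told apart.

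Serpinb6e and Serpinb6c, 2 copies of the Serpinb6 group whose genes lie 36.4 kb apart, moved in opposite directions between the groups. Serpinb6e averaged 317 ± 146 scaled reads in untreated and 44.4 ± 54.0 in treated skin (SD, n = 3 each), 7.14-fold lower. Serpinb6c averaged 111 ± 20.9 and 242 ± 81.7, 2.17-fold higher. For Serpinb1a, Serpinb6a, Serpinb6b and Serpinb9 the untreated and treated libraries overlapped. Serpinb9b was close to the detection limit. Among the 6 genes that passed the filter on low reads, the groups did not overlap for 2, 1 higher and 1 lower in treated skin, beside 37.3% of all genes tested (21.7% higher and 15.6% lower). Limma called the same 2, 1 higher and 1 lower, beside 16.5% of all genes tested (9.26% higher and 7.23% lower). Since the contrast was known when the genes were chosen, nothing is read from these shares.

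**Figure D1:**
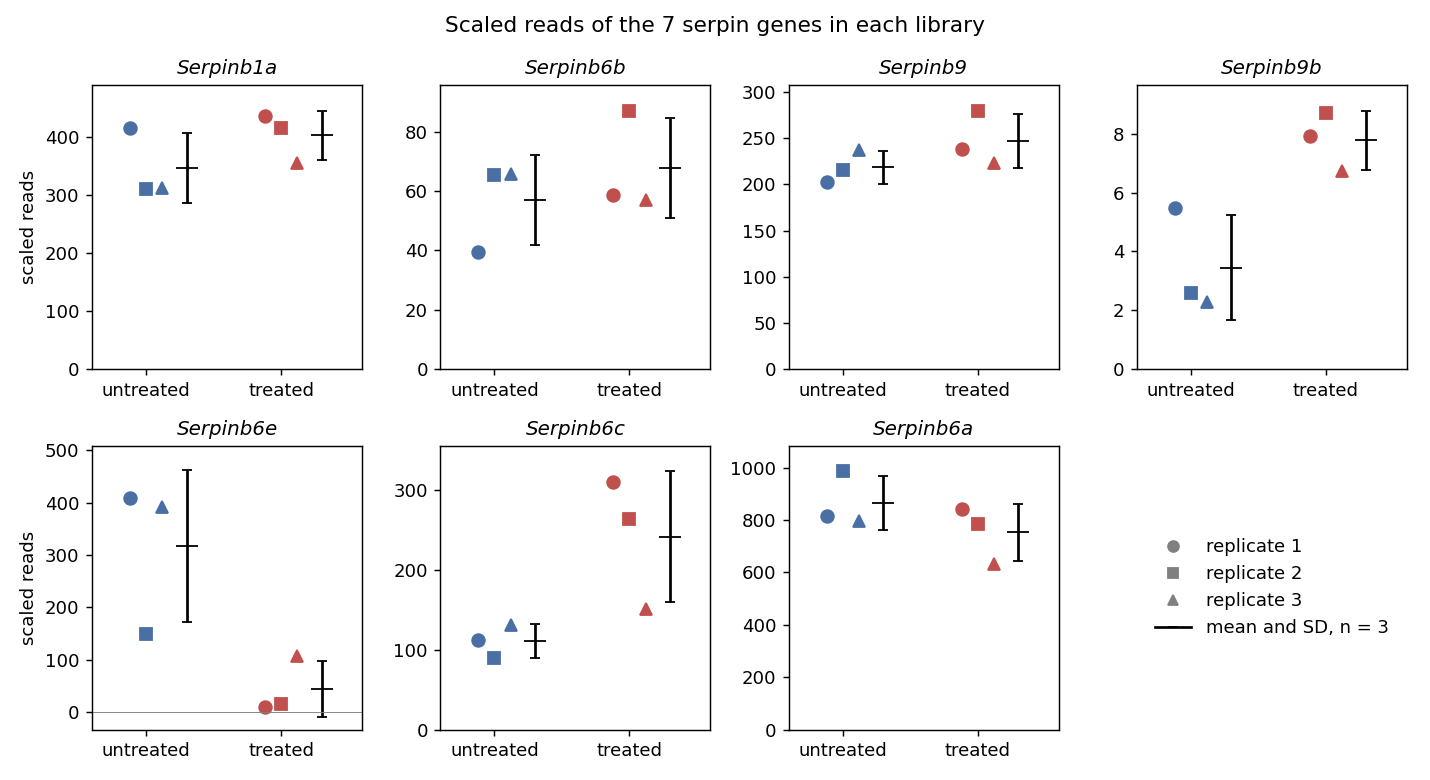
Scaled reads (vertical axis, 1 scale per gene) of each serpin gene in the 3 untreated (blue) and 3 treated (red) libraries, with marker shapes for the replicate and black bars for mean and SD. Serpinb6e is lower and Serpinb6c higher in every treated library, and T3 lies nearest to the untreated libraries in both.

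Serpinb6e and Serpinb6d are shown here by their promoters because both had their lowest untreated value in U2 and their highest treated value in T3 and their start regions shared exact stretches, and Serpinb6c is shown because it went the other way. Each window runs from 250 bases before to 50 bases after the transcript start, on the gene's strand, from RefSeq on GRCm38.p6. The windows are chr13:33843359-33843658 on the minus strand for Serpinb6e, chr13:33661225-33661524 on the plus strand for Serpinb6d and chr13:33905142-33905441 on the minus strand for Serpinb6c. Capitals mark every exact stretch of 12 or more bases common to Serpinb6e and Serpinb6d.
Serpinb6e: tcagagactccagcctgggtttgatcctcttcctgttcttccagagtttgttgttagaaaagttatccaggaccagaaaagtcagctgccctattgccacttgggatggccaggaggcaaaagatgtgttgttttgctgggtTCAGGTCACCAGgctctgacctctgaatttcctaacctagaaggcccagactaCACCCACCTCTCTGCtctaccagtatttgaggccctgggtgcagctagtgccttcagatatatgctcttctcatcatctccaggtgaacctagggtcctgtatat
Serpinb6d: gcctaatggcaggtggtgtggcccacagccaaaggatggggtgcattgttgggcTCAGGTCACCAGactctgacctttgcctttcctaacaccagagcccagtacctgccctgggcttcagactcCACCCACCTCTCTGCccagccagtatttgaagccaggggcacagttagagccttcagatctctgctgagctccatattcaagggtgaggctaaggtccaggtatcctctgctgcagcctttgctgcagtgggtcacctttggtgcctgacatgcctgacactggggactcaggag
Serpinb6c: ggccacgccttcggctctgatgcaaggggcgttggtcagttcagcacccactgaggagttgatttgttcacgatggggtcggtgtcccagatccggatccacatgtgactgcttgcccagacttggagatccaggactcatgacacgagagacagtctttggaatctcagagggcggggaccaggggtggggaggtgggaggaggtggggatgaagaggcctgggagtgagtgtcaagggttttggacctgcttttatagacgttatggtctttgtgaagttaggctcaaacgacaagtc

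The Serpinb6e and Serpinb6d windows held 2 such stretches in the same order, of 27 bases in all and 15 at the longest. In Serpinb6e they lie at -108 to -97 and -55 to -41 from the start, and in Serpinb6d at -196 to -185 and -125 to -111. Of 32850 other RefSeq promoters, 305 (0.928%) shared any stretch of that length with Serpinb6e. The 2 promoters that shared at least 27 bases were both listed for Serpinb6d. Aligned over 210 bases, the pair was 78.1% identical, the highest of 36 promoter pairs among the 9 cluster genes with an entry (range 53.1% to 78.1%, median 61.0%). Serpinb1c and Serpinb1b came next, at 77.2% over 202 bases, and those 2 genes did not move alike. Serpinb1c was lower in every treated library, while Serpinb1b, with 4 reads in untreated and 29 in treated skin, was higher in every one. The Serpinb6c window, which lies inside the gene span of the deposited table, shared no such stretch with Serpinb6e and was 60.3% identical to it. Serpinb6a shared none either. The pair of Serpinb6e and Serpinb6d was picked after the values of Serpinb6d had been seen. A common stretch is a description of the sequence, not evidence of a site.

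Neither the Serpinb6e nor the Serpinb6d window held a CpG, while the Serpinb6c window held 10, beside a median of 7 over all promoters. Serpinb1c, Serpinb1b and Serpinb9b held 2 each, Serpinb6b 4, and Serpinb6a and Serpinb9 5 each, so only Serpinb6c lay above the median. GC content was 49.3%, 57.3% and 55.7% in Serpinb6e, Serpinb6d and Serpinb6c, beside a median of 52.7%. Both strands were searched for TATAAA (in 13.6% of all promoters), CCAAT (37.4%), the AP-1 motif TGANTCA (7.81%), the NF-kB motif GGGA, 4 free bases and CC (20.7%) and the STAT motif TTCNNNGAA (8.30%). None of these letters occurred in the windows of Serpinb6e, Serpinb6d, Serpinb6b, Serpinb9 or Serpinb9b. Serpinb6c held TATAAA on the reverse strand at +4 to +9, and Serpinb6a held CCAAT at -79 to -75 and the NF-kB motif at +20 to +29. The RefSeq start of Serpinb6c lies 517 bases inside the transcript given in the deposited table (chr13:33879816-33905708). Its whole window therefore falls within that transcript's span and does not show the promoter of the transcript as deposited. Serpinb1a had no promoter entry.

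Serpinb6e (NM_001045535, mm10 chr13:33832345-33843408, minus strand, transcript of 1484 bases) is one of the Serpinb6 copies of the mouse. It stood at 410, 149 and 392 scaled reads in the untreated libraries (U1 to U3 in order), and at 10.2, 16.3 and 107 in T1 to T3. All treated libraries lay below all untreated ones, but U2 was low among the untreated and T3 high among the treated. U2 was also the shallowest library and T3 the deepest, and the part of depth in this was not tested. The reads behind these values were 373, 116 and 345 in untreated and 9, 15 and 127 in treated libraries. The treated libraries varied with a coefficient of variation of 122%, against 45.9% in the untreated ones. The log2 fold change (treated over untreated, on log2 of value plus 1) was -3.39 ± 0.76 (SE). It was -2.74 without T1, -4.38 without T3 and -4.85 in the 4 libraries of like depth (U1, U3, T1 and T2). The limma call was lost without U1, U3, T1 or T2. The authors' deposited table gives -2.88.

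Serpinb6d, the copy whose promoter is printed above, lies at chr13:33661475-33671585 on the plus strand, farther from Serpinb6e than Serpinb6c does. Serpinb6d stood at 134, 75.9 and 193 scaled reads in untreated and 10.2, 37.0 and 99.2 in treated libraries. Its log2 fold change was -1.86 ± 0.69 (SE), with an adjusted p of 0.0995 by limma, and T3 lay above U2. It passed without T3 (-2.61, adjusted p 0.0119) and with only the 4 libraries of like depth (-2.97, its adjusted p being 0.00597). Both of these settings leave out T3. Serpinb6d did not pass with edgeR (adjusted p 0.144), DESeq2 (0.289) or limma without a trend in the spread (0.182). Nor did it pass in limma when any library but T3 was left out (0.115 to 0.229), and without T1 its log2 fold change was -1.03. In both copies U2 was lowest of the untreated and T3 highest of the treated libraries. Coding sequences of Serpinb6d and Serpinb6e were 77.9% identical. Serpinb6d was closer in coding sequence to Serpinb6c (82.5%), Serpinb6a (80.8%) and Serpinb6b (80.6%). Of the 50-base stretches of Serpinb6e, 0.97% occurred in another gene's transcript, that of Serpinb6c, so little of it is common to another copy at that length.

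Sebaceous gland genes were lower in treated skin as well: 7 of 12 tested fell and none rose (7.23% of all genes fell). Only 2 fell when U1 was left out, 4 when U3 was, and 3 when either T1 or T2 was. The list summed to 10876 to 11432 scaled reads in untreated and 7231 to 8304 in treated libraries. Scd3, a desaturase gene on that list, stood at 885, 314 and 675 in untreated and 37.3, 115 and 203 in treated libraries (log2 fold change -2.56 ± 0.57, adjusted p 0.0188, and 0.0686 without U1). In Scd3 too, U2 was lowest of the untreated and T3 highest of the treated libraries, as in 5 of the 12 genes of the list. In 6 of the 12, U2 was instead the highest untreated library, and in 3 T3 was the lowest treated one. By limma, Fa2h (adjusted p 0.00693), Cidea (0.0150) and Elovl3 (0.0184) ranked ahead of Scd3 on this list. In Fa2h and Cidea U2 was the highest untreated library. Leaving out 1 library could end the call of Cidea (0.0509 without U1, 0.0577 without T2) and of Elovl3 (0.0591 without U3, 0.0542 without T1, 0.0566 without T2). The lipid synthesis gene Dgat2l6, chosen after its values were seen, also had its lowest untreated value in U2, at 56.6 against 247 and 277 in U1 and U3. It stood at 55.4, 142 and 210 in treated libraries, where the groups overlapped. The part of these genes in the Serpinb6e result was not tested.

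By Pearson correlation of log2 values over the 6 libraries, the genes most like Serpinb6e were Hsd3b6, a steroid-synthesis enzyme (r = 0.997), Fcgbp (0.996) and Hoxaas2 (0.994). 198 genes had an r above 0.95. The 6 points share their libraries and depth, and the correlation follows the group difference as well as the spread within groups.

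Serpinb6c (NM_148942, mm10 chr13:33879816-33905708, minus strand, transcript of 1319 bases) lies between Serpinb6e and Serpinb6a. It stood at 112, 90.1 and 132 scaled reads in the untreated libraries, again in order, and at 310, 265 and 151 in T1 to T3. All treated libraries lay above all untreated ones, with T3 only a little above U3. The log2 fold change was 1.07 ± 0.26 (SE). It ranged from 0.86 without T1 to 1.37 without T3, and the limma call was lost without U1, U2, T1 or T2. The authors' deposited table gives 1.08, and its adjusted p was under 0.05 for the same 2 of the 7 genes, beside 14.8% of its 17564 genes.

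Serpinb6c has the most sequence in common with other genes among the 7. Of its 50-base stretches, 10.4% occurred in transcripts of Serpinb6a, Serpinb6b, Serpinb6d, Serpinb6e or predicted genes, and its coding sequence was 87.9% identical to that of Serpinb6b and 87.4% to that of Serpinb6a. How the authors' counting treated reads that match several copies is not given in the sources used here, so its level is uncertain to that extent. The genes most like it over the 6 libraries were Trmt6 (r = 0.998), the Golgi calcium pump gene Atp2c1 (0.996) and the late cornified envelope gene Lce3e (0.996), and 300 genes had an r above 0.95.

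The balance between the 2 copies turned over. Per kb of transcript, the ratio of Serpinb6e to Serpinb6c was 3.25, 1.47 and 2.64 in U1, U2 and U3, and 0.0292, 0.0549 and 0.627 in T1, T2 and T3. Serpinb6e thus exceeded Serpinb6c in every untreated library and was below it in every treated one. Among treated libraries the ratio was lowest in T1, where the neutrophil list summed highest (4928). It was highest in T3, where that list summed lowest (1347). Untreated libraries ran the other way, the ratio being highest in U1 (list sum 882) and lowest in U2 (677). Within each group the ratio was also lowest in the shallowest library and highest in the deepest. The part of neutrophils or of depth in this was not tested.

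Serpinb6a (NM_001164118, mm10 chr13:33917918-33936083, minus strand, transcript of 1644 bases) encodes an inhibitor of cathepsin G and of trypsin-like proteases. It stood at 816, 985 and 796 scaled reads in untreated and 842, 786 and 633 in treated libraries. The groups overlapped, with U2 the highest and T3 the lowest library. The log2 fold change was -0.20 ± 0.12 (SE). The reads behind it were nearly constant, at 701 to 766 per library, while library totals ranged from 4928245 to 7545567. The highest scaled value therefore fell in the shallowest library (U2) and the lowest in the deepest (T3), and in the 4 libraries of like depth the log2 fold change was 0.013. Serpinb6a reached 0.466 reads per base of transcript, and no gene in any library went above 0.923. Whether the counting took only 1 read per position is not stated in these sources, and what that would do to the levels of abundant genes, per-kb values and their ranks included, was not tested. The genes most like it were the housekeeping genes Atp5a1 (r = 0.998), of the mitochondrial ATP synthase, Tpi1 (0.997), of glycolysis, and Bsg (0.996). RefSeq places 1110046J04Rik across its locus, and the strand setting of the authors' counting is not given in the sources used here.

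Serpinb1a (NM_025429, mm10 chr13:32842092-32851185, minus strand, transcript of 1909 bases) encodes an inhibitor of the neutrophil proteases elastase, cathepsin G and proteinase 3. It stood at 415, 310 and 312 scaled reads in untreated and 436, 416 and 355 in treated libraries. U1 reached the treated range and T3 lay below U1, and the log2 fold change was 0.23 ± 0.14 (SE). It ranged from 0.15 to 0.36 under 16 other settings. The gene most like it over the 6 libraries was Cyfip1 (r = 0.998), and 11 genes had an r above 0.95. The neutrophil marker Csf3r, which encodes the receptor for granulocyte colony-stimulating factor, rose from 90.1, 33.5 and 82.9 to 976, 898 and 280 (log2 fold change 3.29 ± 0.50, adjusted p 0.00534), and the part of neutrophils in the Serpinb1a values was not tested. The neutrophil protease genes themselves were barely measured: Elane had 14 reads over the untreated and 15 over the treated group, and Ctsg 11 and 7. Prtn3, which encodes proteinase 3, stood at 12.1, 24.4 and 10.2 against 23.8, 33.8 and 20.2 (log2 fold change 0.76 ± 0.38, adjusted p 0.209), and of the alternatives only the fit to the 4 libraries of like depth gave it a call (adjusted p 0.0465).

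Serpinb1c, a close copy with 89.7% identity to Serpinb1a in its coding sequence, fell in treated skin. It stood at 90.1, 84.9 and 85.2 scaled reads in untreated and 26.0, 16.3 and 42.0 in treated libraries (log2 fold change -1.69 ± 0.32, adjusted p 0.0107 by limma), and the call held under all 16 other settings. Of the 50-base stretches of Serpinb1a, 3.42% occurred in Serpinb1b, Serpinb1c or a pseudogene. Serpinb1b, the other copy, had 4 reads over the untreated and 29 over the treated group and was below the filter.

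Serpinb9 (NM_009256, mm10 chr13:33004541-33017955, plus strand, transcript of 3388 bases) encodes an inhibitor of granzyme B, with which cytotoxic lymphocytes protect themselves. It stood at 202, 216 and 237 scaled reads in untreated and 239, 280 and 224 in treated libraries, with T3 inside the untreated range and a log2 fold change of 0.17 ± 0.13 (SE). Its target gene Gzmb rose, from 7.69, 7.72 and 6.82 to 35.1, 37.0 and 16.8 (log2 fold change 1.79 ± 0.37, adjusted p 0.0144, and 0.0589 without T1 or 0.0667 without T2). Most like Serpinb9 were Lum (r = 0.989), which encodes a proteoglycan of the dermis, Slc28a2 (0.986) and Pla1a (0.965), and 11 genes had an r above 0.95. RefSeq gene models overlap both this gene (Gm36181) and Serpinb9b (Gm36099).

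Serpinb6b (NM_011454, mm10 chr13:32965261-32979064, plus strand, transcript of 2129 bases) encodes an inhibitor of granzyme A. It stood at 39.6, 65.6 and 65.9 scaled reads in untreated and 58.8, 87.1 and 57.1 in treated libraries. The groups overlapped, with U2, U3, T1 and T3 between 57.1 and 65.9, and the log2 fold change was 0.25 ± 0.27 (SE). Gzma rose, from 0, 1.29 and 4.54 to 21.5, 26.1 and 13.4 (log2 fold change 3.15 ± 0.63, adjusted p 0.0128, and 0.0550 without T2). The gene most like Serpinb6b was the interferon-induced GTPase gene Tgtp2 (r = 0.957).

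Serpinb9b (NM_011452, mm10 chr13:33027414-33040588, plus strand, transcript of 1950 bases), a copy 86.4% identical to Serpinb9 in its coding sequence, encodes an inhibitor of granzyme M. It had 5, 2 and 2 reads in untreated and 7, 8 and 8 in treated libraries, which is too few for the filter, so it was not tested. In scaled reads all treated libraries (7.92, 8.71 and 6.72) lay above all untreated ones (5.49, 2.57 and 2.27). The summed reads gave a ratio of 2.19 with a 95% interval of 0.977 to 5.38. That interval covers the counting error of pooled reads only, leaves out the spread between libraries, and is no test of the groups. Gzmm averaged 31.7 ± 4.07 in untreated and 22.4 ± 0.532 scaled reads in treated skin (SD, n = 3 each), with a log2 fold change of -0.47 and an adjusted p of 0.219.

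Across the whole list of proteases that clade B serpins are known to meet, 5 of 21 tested genes rose and 1 fell. Of all genes tested, 9.26% rose and 7.23% fell. The list's median log2 fold change was 0.28 beside 0.03 over all genes. The count that rose was 3 without U1 or U2, 2 without T1 and 0 without T2. Besides Gzma and Gzmb, the genes that rose were Casp1 (0.56, adjusted p 0.0271), which encodes the protease that matures interleukin-1, Plau (0.55, adjusted p 0.0132), which encodes urokinase, and the mast cell tryptase gene Tpsb2 (0.41, adjusted p 0.0483). Klk5, a kallikrein gene of the cornified layer, fell (-0.29, adjusted p 0.0479). Leaving out a single library raised the adjusted p of Plau to 0.0566 (T2) and that of Casp1 to 0.0825 (U1), 0.0705 (U2), 0.0808 (T1) or 0.0854 (T2). The call of Tpsb2 was lost when any library but U3 was left out (adjusted p 0.0644 to 0.163), and that of Klk5 when any library but T3 was left out (0.0632 to 0.174). Tpsb2 also missed the threshold with edgeR (0.0660), DESeq2 (0.0836), TMM scaling (0.0608) and the like-depth libraries (0.0885), and Klk5 with no filter (0.0520) and the like-depth libraries (0.0549).

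The cytotoxic lymphocyte list, whose cells use granzymes, summed to 237 to 324 in untreated and 218 to 346 in treated libraries, so the groups overlapped. Of its 7 tested genes, 1 rose and 1 fell, beside 9.26% and 7.23% of all genes tested. That count depends on the filter on low reads, without which 3 rose and 1 fell. Among the genes below the filter, Cd8b1, Klrb1c, Ncr1 and Fasl were higher in every treated library on few reads, and Eomes overlapped. Cd8a rose (2.63, adjusted p 0.0167, and 0.0663 without T2). Prf1, which encodes perforin, fell (-1.62, adjusted p 0.0158, and 0.0679 without U1, 0.0507 without U3 or 0.0511 without T1). The part of these cells in the values of Serpinb9, Serpinb9b and Serpinb6b was not tested.

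**Figure D2:**
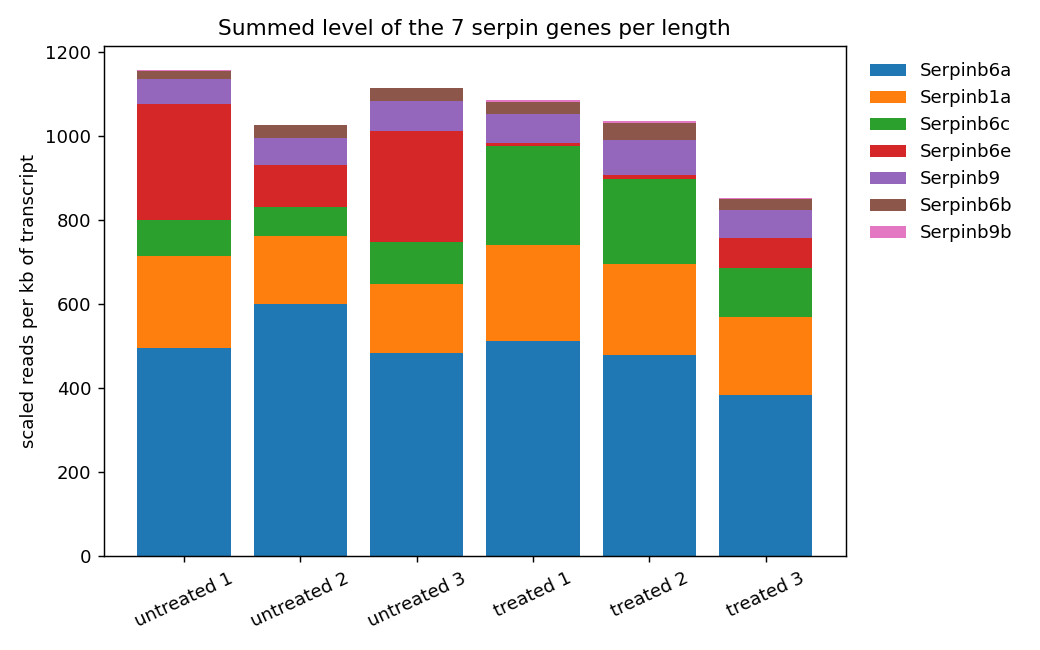
Stacked bars give scaled reads per kb of transcript for the 7 serpin genes in each of the 6 libraries. The totals run from 853 to 1156, while Serpinb6e shrinks from 9.80% to 23.9% of the total in untreated libraries to 0.632% to 8.43% in treated ones.

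Compared per kb of transcript, Serpinb6a was the most abundant of the 7 in every library, and in untreated skin its mean of 527 lay at the 98.8th percentile of all genes. The untreated means followed in the order Serpinb6e (214), Serpinb1a (181), Serpinb6c (84.4), Serpinb9 (64.5), Serpinb6b (26.8) and Serpinb9b (1.77). Serpinb6e and Serpinb1a overlapped in that order, with ranges of 101 to 276 and 162 to 218, and so did Serpinb6c (68.3 to 99.9) and Serpinb9 (59.7 to 70.1). In treated skin the means were 459 for Serpinb6a, 211 for Serpinb1a, 183 for Serpinb6c, 73.0 for Serpinb9, 31.8 for Serpinb6b, 29.9 for Serpinb6e and 3.99 for Serpinb9b. There Serpinb1a (186 to 229) overlapped Serpinb6c (115 to 235), and Serpinb6b (26.8 to 40.9) overlapped Serpinb6e (6.86 to 71.9).

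The summed level of the 7 genes was 1156, 1027 and 1114 scaled reads per kb in untreated and 1085, 1036 and 853 in treated libraries, so the groups overlapped in total while their makeup differed. Serpinb6c made up 7.35%, 6.65% and 8.97% of that sum in untreated and 21.6%, 19.4% and 13.4% in treated libraries.

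**Figure D3:**
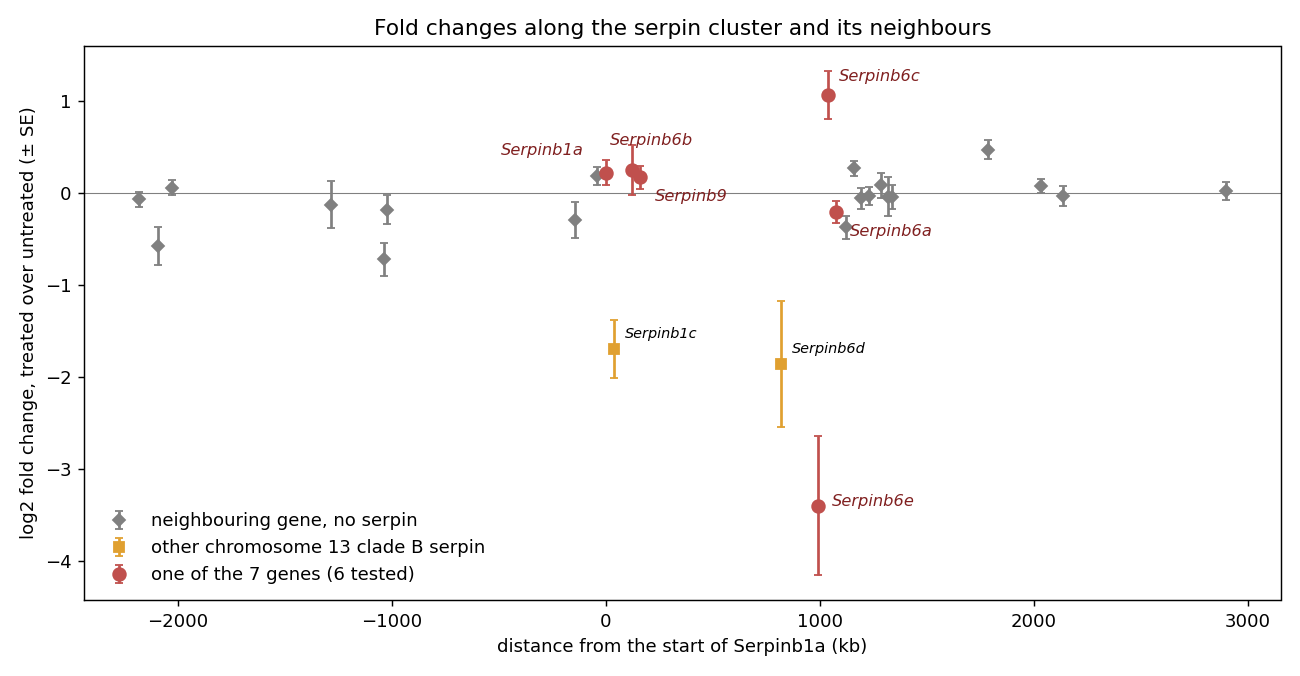
Log2 fold change with SE (vertical axis) against distance from the start of Serpinb1a in kb (horizontal axis) for the 6 tested serpin genes, 2 other clade B serpins and 19 non-serpin neighbours. Serpinb6c at 1.07 and Serpinb6e at -3.39 lie side by side, and the neighbours range from -0.72 to 0.47.

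The 7 genes span 1094 kb of chromosome 13 in 2 blocks. Serpinb1a, Serpinb6b, Serpinb9 and Serpinb9b form the first, and Serpinb6e, Serpinb6c and Serpinb6a the second, with 792 kb between Serpinb9b and Serpinb6e. This split holds for the 7 listed genes only, because the clade B serpins Serpinb1b and Serpinb6d lie within that stretch. Of 19 tested non-serpin neighbours, 1 rose and 1 fell (9.26% and 7.23% of all genes tested), and their median log2 fold change was -0.04. Pxdc1 rose (0.47, adjusted p 0.0187, and 0.0681 without U1, 0.0560 without T1 or 0.0516 without T2). The transcription factor gene Foxc1 fell (-0.72, adjusted p 0.0286, and 0.0966 without U1, 0.0814 without U3, 0.0871 without T1 or 0.0960 without T2). The genes next to Serpinb6a, Nqo2 and Ripk1, were chosen for their position after their values were seen. Their log2 fold changes were -0.37 (adjusted p 0.0720) and 0.27 (adjusted p 0.0517).

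The clade B serpins of chromosome 1, a second tandem set with many epidermal members, also held genes of both directions. Of 11 tested, 4 rose and 2 fell, beside 9.26% and 7.23% of all genes tested, and the median log2 fold change was -0.15. Serpinb3a stood at 23.1, 50.2 and 85.2 scaled reads in untreated and 719, 629 and 576 in treated libraries (log2 fold change 3.76, adjusted p 0.00114). Serpinb3b (0.91, adjusted p 0.00479) and Serpinb12 (1.38, adjusted p 0.00456) rose too. Serpinb3d had no read in any untreated library and stood at 121, 74.1 and 48.7 in treated ones (adjusted p 3.91e-04). Serpinb7 (-1.11, adjusted p 0.0173) and Serpinb8 (-0.40, adjusted p 0.0422) fell, but leaving out a library could end either call. That of Serpinb7 was lost without U1, U2, T1 or T2 (adjusted p 0.0546 to 0.0649), and that of Serpinb8 without any library but T3 (0.0821 to 0.144).

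**Figure D4:**
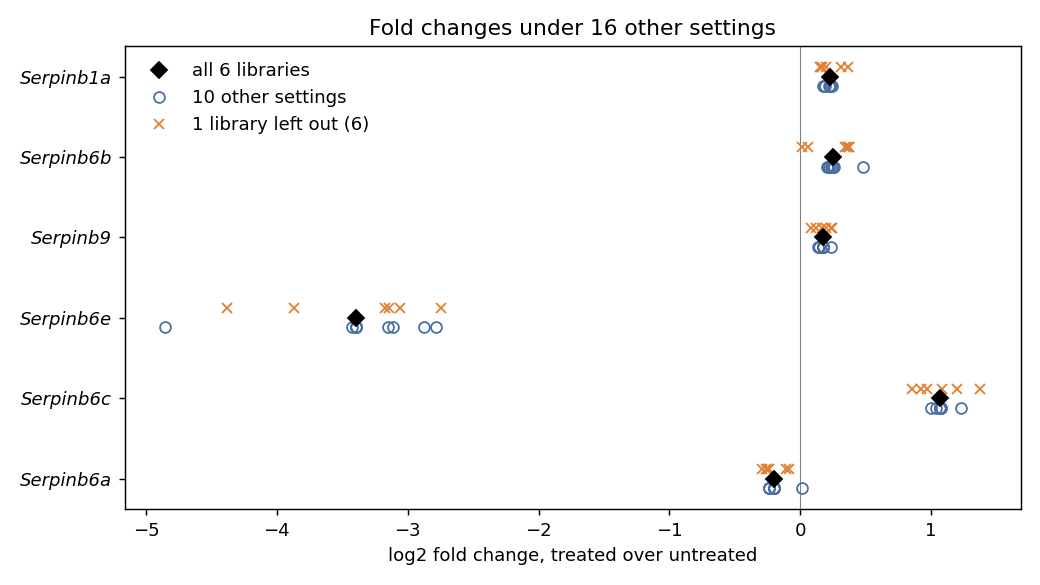
Log2 fold change (horizontal axis) of the 6 tested serpin genes with all 6 libraries (black diamonds), under 10 other settings (blue circles) and with 1 library left out (orange crosses). Serpinb6e stays between -4.85 and -2.74 and Serpinb6c between 0.86 and 1.37, while only Serpinb6a, at -0.29 to 0.013, reaches both sides of 0.

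Over 16 other settings, the fold changes of Serpinb6e and Serpinb6c kept their direction, and each was called under 11 of them. Serpinb1a, Serpinb6a, Serpinb6b and Serpinb9 were called under none of the 16, and their log2 fold changes lay within -0.29 to 0.48.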

How the data were processed

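The labels' protocols name a TruSeq kit that keeps strand for the mRNA libraries. The submitters' processing notes list STAR, DESeq2, bcl2fastq 2.20.0.422 and build mm10. Which program counted reads, with what strand setting and filters, is not given in the sources used here. In all, the authors deposited 1 table of 17564 genes, whose 6 value columns are a scaled signal, beside the authors' deposited log2 fold changes, p-values and adjusted p-values, transcript positions and lengths in bases. All values (100%) lay within 0.1 of whole multiples of 1 read, so reads were recovered, 4928245 to 7545567 per library.

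Genes passing filterByExpr of edgeR 4.0.16 (minimum count 10, minimum total 15) went into limma 3.58.1 (R 4.3.3) on log2(value + 1), with a trend in the spread and group as the only term. P-values were adjusted by Benjamini-Hochberg over 15534 genes, and called under 0.05. Fold changes on this scale understate those of low genes. The edgeR quasi-likelihood test on recovered reads, an alternative, called 1249 genes higher and 1204 lower. Other alternatives were DESeq2 1.42.0, TMM scaling, other filters and pseudocounts, no trend, the replicate block, the 4 libraries of like depth (U1, U3, T1 and T2) and leaving out each library. Since separate animals are not stated, p-values measure spread between samples that may be technical only. On simulated data, the fit recovered 87% of 3-fold and 51% of 1.5-fold changes and called 15 of 15190 unchanged genes. Genes with few reads were not among those changed in that simulation.

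The members and gene lists were chosen with earlier results of these data known, so no p-value is printed for a member or over a list. Calls of members, and counts of settings that kept them, only say on which side of the threshold they fell. They are a description and add no support. Named were all members, up to 4 called genes per list and direction (every one where 5 or fewer were called), 5 granule protease genes whatever their result, and the 3 genes most correlated with each tested member, without predicted genes. Not every gene this rule takes is described. Serpinb6d, Serpinb1b and Gzmm fall outside it and were added after their values were seen. Promoters came from RefSeq on GRCm38.p6 (6 of the 7 members had one) and transcripts from GENCODE M21. Pairs were aligned with Biopython 1.88, and figures drawn with matplotlib 3.10.9 in Python 3.11.15.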

Additional observations from a re-analysis of the deposited data

How the results depend on the processing

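Without a trend in the spread, limma called 922 genes higher and 640 lower, and 0 of the serpins higher and 0 lower (unadjusted p under 0.05 for 1 higher and 1 lower). The edgeR and DESeq2 tests each called 1 higher and 1 lower. Leaving out 1 library gave 610 to 1420 genes higher and 529 to 1344 lower, and 0 to 1 serpins higher and 0 to 1 lower. The counts of all genes were lowest without T2 (610 and 529), U1 (691 and 545), U2 (761 and 647) and T1 (859 and 623). The Serpinb6a log2 fold change turned from -0.20 to 0.013 in the 4 libraries of like depth, and the cause was not tested. Of the values of named list genes under all alternatives, 842 kept direction and side of the threshold, 101 lost the call and 1 (Prtn3) gained it. These counts leave out Serpinb6d, which gained a call under 3 alternatives. Without the trend, the calls of Casp1 (0.0577), Tpsb2 (0.0927), Klk5 (0.0967), Scd3 (0.0625), Elovl3 (0.0558), Foxc1 (0.0757), Serpinb7 (0.0576) and Serpinb8 (0.103) were lost (adjusted p).

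With the replicate number as a block, 1348 genes were higher and 1096 lower, with 1 serpin in each direction, Serpinb6d gained a call (adjusted p 0.0315), and Tpsb2 (0.0702) and Klk5 (0.0932) lost theirs. The numbers do not pair the libraries: deviations of same-numbered libraries correlated at -0.085, -0.0545 and 0.0538, and not every library correlated best with its own number. Depth limits Serpinb6e in T1 and T2, with 9 and 15 reads, and Serpinb9b, with 9 reads over the untreated and 23 over the treated group.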
